A study of Mus musculus with 8 samples.

Results

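The C/EBP family loci were described in 4 mouse melanoma cell lines by ATAC-seq, which marks open chromatin by the transposase insertions it takes up. The 7 genes were Cebpa, Cebpb, Cebpd, Cebpe, Cebpg, Cebpz and Ddit3. A region of the shared count table belonged to a member when it lay inside the gene, or within 50 kb of it with the member as the nearest protein-coding gene end. This rule took 26 of 148664 regions by position alone, although the family was chosen with earlier results of these data known. Of all these regions, 87.8% overlapped a peak call of at least 1 library, so the regions to choose from were mostly places called open. Cebpb had 8 regions, Cebpa 6, Cebpd 4, Cebpz 3, Ddit3 3, Cebpe 1 and Cebpg 1. Of these, 9 were promoter regions, within 1 kb of the transcription start, and 17 were distal. Where the table of starts held no entry (Cebpd, Cebpe and Cebpz), the nearer gene end stood in for the start. The class of all promoters was made the same way, and 17491 of 21896 genes had a listed start. For the others both gene ends counted, so that class also holds regions at the far ends of genes.

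Lines 112 and 113 are labelled STAT3 knockout (Stat3∆) and lines 119 and 73 wild type, whose growth notes name them Stat3fl, that is, carrying loxP-flanked Stat3. Each line gave 2 libraries of 50000 cells. Each line was a pool of cells taken from the lymph nodes of mice whose skin melanoma began at about 25 to 30 weeks of age, although the labels also call each line a clone. The strain, the driver of the melanoma and the Cre that deleted Stat3 are not given in the sources used here, and the p numbers in the sample titles (p18, p44, p14 and p68 in lines 112, 113, 119 and 73) are not explained. The libraries are labelled biological replicates without naming separate cultures, so a p-value between lines measures the spread between libraries of a line, which may be technical.

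C/EBP proteins are basic leucine zipper transcription factors that bind DNA as dimers with each other or with related zipper proteins. In liver and myeloid cells, cytokines of the interleukin-6 family act through STAT3 to induce Cebpb and Cebpd, whose products switch on acute-phase and inflammatory genes. The series asks whether STAT3 acts through C/EBP factors on the pigmentation programme governed by MITF, the master transcription factor of melanocytes.

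The 250 bases before the start of 4 members, from RefSeq on GRCm38.p6, are given here because these stretches lie in the promoter regions measured below. Capitals mark matches to 9 motifs searched on both strands over 300 bases, from 250 before to 50 after the start. Cebpa was read at chr7:35119043-35119292 on the plus strand, Cebpb at chr2:167688665-167688914 on the plus strand, Cebpg at chr7:35056567-35056816 on the minus strand and Ddit3 at chr10:127290543-127290792 on the plus strand.
Cebpa: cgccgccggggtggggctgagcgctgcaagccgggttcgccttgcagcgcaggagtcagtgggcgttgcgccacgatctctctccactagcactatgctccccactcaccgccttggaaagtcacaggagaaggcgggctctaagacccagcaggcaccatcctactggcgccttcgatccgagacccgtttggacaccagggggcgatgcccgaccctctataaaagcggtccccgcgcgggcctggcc
Cebpb: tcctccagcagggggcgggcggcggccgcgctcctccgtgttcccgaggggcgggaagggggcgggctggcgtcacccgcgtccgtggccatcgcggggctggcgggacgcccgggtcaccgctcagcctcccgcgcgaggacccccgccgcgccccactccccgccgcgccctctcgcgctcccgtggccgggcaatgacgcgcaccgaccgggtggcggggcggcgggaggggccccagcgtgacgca
Cebpg: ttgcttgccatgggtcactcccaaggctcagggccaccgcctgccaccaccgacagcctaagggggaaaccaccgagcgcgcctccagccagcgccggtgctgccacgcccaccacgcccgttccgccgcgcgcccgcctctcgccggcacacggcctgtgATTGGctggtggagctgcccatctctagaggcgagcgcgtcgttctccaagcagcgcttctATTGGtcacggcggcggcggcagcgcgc
Ddit3: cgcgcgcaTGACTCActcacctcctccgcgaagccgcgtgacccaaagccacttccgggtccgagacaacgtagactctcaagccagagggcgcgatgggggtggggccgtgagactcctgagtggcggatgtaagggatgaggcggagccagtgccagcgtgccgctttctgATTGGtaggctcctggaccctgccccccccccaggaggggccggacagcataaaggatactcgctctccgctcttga

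The Cebpg window held the CCAAT box on its minus strand in 2 places, as ATTGG at -89 to -85 and at -28 to -24, counted from the start with -1 the base before it. In Ddit3 the CCAAT box, again as ATTGG, lay at -77 to -73, and the AP-1 motif TGANTCA matched at -242 to -236. Of 32851 promoter windows of this length in the table, 37.4% held CCAAT and 7.81% held TGANTCA. No letters of the 9 motifs were found in the Cebpa and Cebpb windows. The other motifs searched were the STAT motifs TTCNNNGAA (in 8.30% of windows) and TTCCNGGAA (1.15%), the C/EBP motif TTGCNNAA (10.8%), the C/EBP-ATF composite TGATGCAA (0.895%), the CRE TGACGTCA (1.79%) and the E-boxes CATGTG (14.2%) and CACGTG (7.15%). TTCCNGGAA is contained in TTCNNNGAA. A match is a run of letters only, and a window without one says nothing of the factor. GC content was 67.3% in Cebpa, 80.7% in Cebpb, 71.7% in Cebpg and 60.7% in Ddit3, against a median of 52.7% over all windows.

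Library totals ran from 2697546 to 7464336 counts, and the peak lists from 20387 to 94906 peaks, both lowest in the second library of line 112 and highest in the first of line 119. The libraries of line 112 matched each other least (Pearson r of log2 CPM 0.863, across regions) and those of line 119 most (0.957). The tests between lines used one spread for all lines, which may be too small for pairs that include line 112. CPM is the count of a region relative to the library total after TMM scaling, which sets the libraries to a common level. Promoter regions as a class took a different share of all counts in each line, namely 33.2% to 34.5% (line 112), 39.79% to 39.97% (line 113), 28.3% to 28.6% (line 119) and 40.1% to 40.3% (line 73). Results on C/EBP promoters are therefore also given on a scale set by promoter regions alone, which was chosen after the data were seen. That scale moved the median log2 fold change of all regions by -0.17 for line 112 over 119, 0.51 for 112 over 73, -0.66 for 113 over 119, 0.02 for 113 over 73, 0.49 for 112 over 113, 0.68 for 119 over 73 and -0.10 for knockout over wild type. The start region of Stat3 held 28.2 CPM (line 112), 38.0 (line 113), 18.2 (line 119) and 33.5 (line 73), and does not check a deletion elsewhere in the gene.

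Markers of the labelled cell type differed between the lines. Of 9 melanocyte marker genes, 8 had a promoter region, whose CPM summed to 136 (line 112), 255 (line 113), 68.9 (line 119) and 56.9 (line 73). By line means, 6 of the 8 (Dct, Mlana, Tyr, Tyrp1, Kit and Sox10) were lower in both wild-type lines than in both knockout lines. Of these, Mlana and Dct, which encode melanosome proteins, were at 0.745 and 3.79 CPM in line 119 and at 0.256 and 0.534 CPM in line 73. Ednrb held 10.3 CPM in line 119 against 9.88 in line 112, and Mitf was highest in line 73, at 39.1 CPM. Promoter regions of 8 fibroblast markers summed to 75.8, 75.7, 86.5 and 240.3 CPM in lines 112, 113, 119 and 73. Promoter regions were found for 3 of 10 leukocyte markers (15.7 to 24.9 CPM summed), 3 of 6 endothelial markers (10.9 to 34.7 CPM) and 1 of 5 epithelial markers (3.29 to 5.10 CPM), and none of those summed levels was at 0. The part of other cell types in the differences below was not tested. In bulk cells, fewer cells with a region open and a region less open in every cell cannot be told apart.

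Every member except Cebpe had an open promoter in all 4 lines. The promoter regions averaged 9.24 to 72.6 CPM over the lines, and 8 of the 9 overlapped a peak call in all 8 libraries, against 50.8% of the 17381 promoter regions tested. The exception lay 822 bp before the Cebpa start and had a peak in 6 libraries. No distal region had a peak in all 8 libraries (0 of 17, against 2.72% of all distal regions), 14 had one in at least 1 library and 3 had none. Per kb of region, the start region of Ddit3 was the most open, at 69.2 CPM per kb, ahead of Cebpa at 47.2, Cebpg at 45.2, Cebpz at 44.9, Cebpd at 35.4 and Cebpb at 23.0. Those of Cebpa, Cebpg and Cebpz lay closer to each other than lines did within any of them. The order depends on region width, and the Cebpb and Cebpd start regions were the widest (1762 and 1217 bp). Without dividing by width, the start regions averaged 43.3 CPM (Ddit3), 43.0 (Cebpd), 40.5 (Cebpb), 39.9 (Cebpg), 30.65 (Cebpa) and 26.3 (Cebpz). The Ddit3 start region also overlaps a gene end of Mbd6, and that of Cebpz the start of Ndufaf7, so neither level belongs to the member alone.

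**Figure D1:**
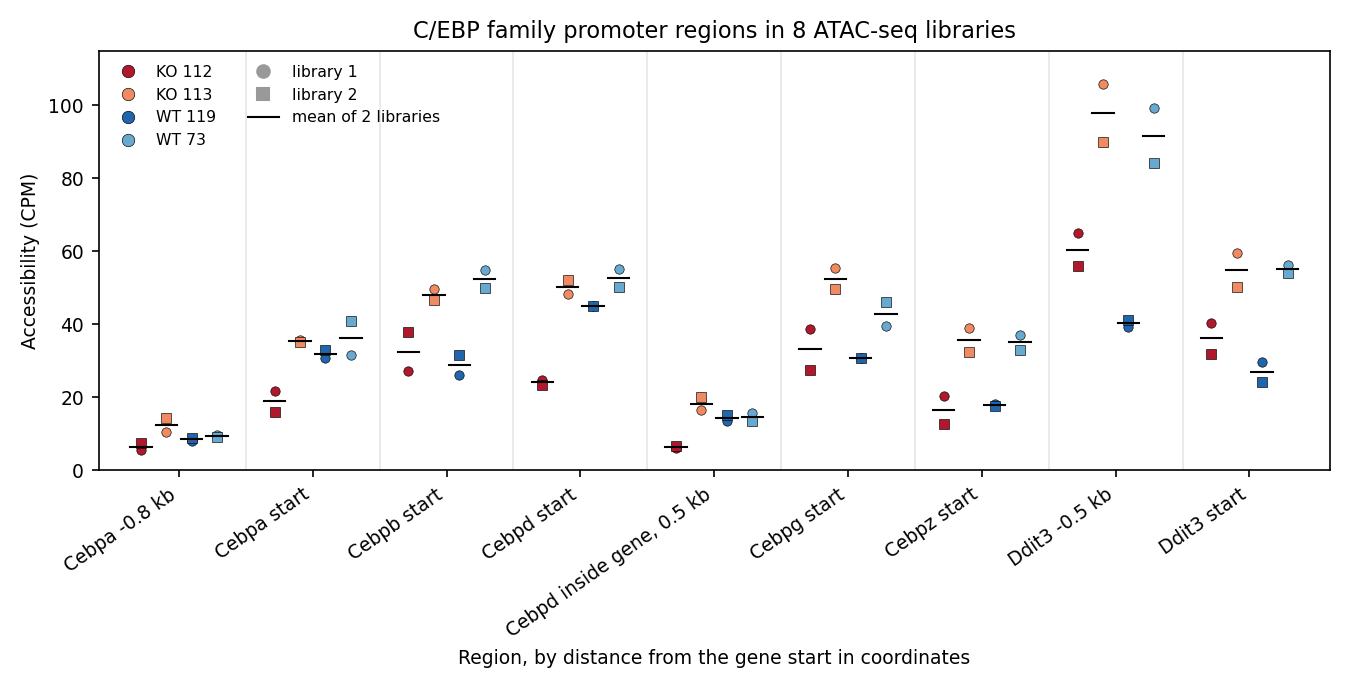
Accessibility in CPM (vertical axis, linear from 0) of the 9 promoter regions of C/EBP family genes (horizontal axis) in each library, with circles and squares for the 2 libraries of a line, colours for lines and a bar for their mean. Region names give the distance from the start, or for Cebpd and Cebpz from the gene end. Line 112 was lowest at both Cebpa and both Cebpd regions, line 119 lowest at both Ddit3 regions, and the genotypes overlapped at all 9.

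Cebpa, which drives terminal differentiation of fat, liver and granulocytic cells, had its start region at 35118806 to 35119455 on chromosome 7. Its libraries held 21.9 and 16.01 CPM (line 112), 35.8 and 35.1 (line 113), 30.8 and 33.1 (line 119) and 31.8 and 40.8 (line 73). Both libraries of line 112 were below the other 6, which overlapped each other. Line 112 was lower than line 119 by a log2 fold change of -0.73 ± 0.20 (SE, edgeR adjusted p 0.0021), than line 73 by -0.92 ± 0.21 (adjusted p 0.00020) and than line 113 by -0.89 ± 0.21 (adjusted p 0.00088). On the promoter scale the difference from line 119 was -0.90 (adjusted p 1.5e-05), and those from line 73 and line 113 no longer passed (-0.40, adjusted p 0.056, and -0.39, adjusted p 0.091). Line 119 was also above lines 113 and 73 on that scale. The log2 fold changes were -0.51 for 113 over 119 (edgeR adjusted p 0.0029) and 0.50 for 119 over 73 (adjusted p 0.0045). The weaker region 822 bp upstream averaged 6.49 CPM (line 112), 12.5 (line 113), 8.55 (line 119) and 9.45 (line 73).

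Cebpd, an early responder to interleukin-6, had the promoter region with the widest fold between lines (2.86), the weaker of 2 (2.18 at the other). Its first region, at 15886539 to 15887755 on chromosome 16, held 24.9 and 23.4 CPM (line 112), 48.3 and 52.3 (line 113), 45.1 and 45.1 (line 119) and 55.1 and 50.3 (line 73). A neighbouring region 493 bp inside the gene end, at 15887779 to 15888279, held 6.05 and 6.77 CPM in line 112 and 13.6 to 20.1 in the other 6 libraries. Line 112 lay below all the others at both, by a log2 fold change of -0.90 ± 0.18 against line 119, -1.12 ± 0.18 against line 73 and -1.05 ± 0.18 against line 113 at the first (edgeR adjusted p 3.6e-05, 7.3e-07 and 1.4e-05). The differences were -1.06, -0.60 and -0.55 on the promoter scale and still passed (adjusted p 1.8e-08, 0.00078 and 0.0050). Line 112 was thus lower than the other knockout line as well as both wild-type lines. At the first region, line 119 was also above lines 113 and 73 on the promoter scale. The log2 fold changes were -0.51 for 113 over 119 (edgeR adjusted p 0.00053) and 0.46 for 119 over 73 (adjusted p 0.0020). At the neighbouring region they were -0.31 (adjusted p 0.21) and 0.65 (adjusted p 0.012).

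Cebpb, the C/EBP factor induced in inflammation and in regenerating liver, had 1 promoter region, which overlaps the start at 167688509 to 167690270 on chromosome 2. It held 27.2 and 37.9 CPM (line 112), 49.6 and 46.7 (line 113), 26.1 and 31.6 (line 119) and 54.8 and 50.0 (line 73). Lines 113 and 73 were the high pair and lines 112 and 119 the low pair, 1 of each genotype in both, and 4 of 6 pairs passed. Promoters as a class were likewise higher in lines 113 and 73, and on the promoter scale the differences of Cebpb were -0.19 to 0.08 with 0 pairs passing.

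Cebpg encodes a short zipper protein that pairs with the other members and lacks their activation domain. Its single region, at 35056033 to 35056915 on chromosome 7, also falls inside the gene model Gm45095 and held 38.9 and 27.4 CPM (line 112), 55.5 and 49.6 (line 113), 30.9 and 30.9 (line 119) and 39.7 and 46.1 (line 73). Line 113 was above lines 112 and 119, and line 73 above line 119. These 3 pairs passed (5 without the first library of line 112), and 0 passed on the promoter scale.

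Cebpz encodes a nuclear protein named for binding CCAAT boxes and is not a zipper protein. Its end region, at 78936800 to 78937385 on chromosome 17, also holds the start of Ndufaf7, a mitochondrial complex I assembly factor, so the accessibility cannot be assigned to 1 of the genes. It held 20.5 and 12.6 CPM (line 112), 39.0 and 32.4 (line 113), 18.2 and 17.6 (line 119) and 37.1 and 33.1 (line 73), again with lines 113 and 73 high. Line 112 was below lines 73 and 113 on both scales (log2 fold changes of -1.06 ± 0.22 and -1.08 ± 0.21, and -0.54 and -0.58 on the promoter scale).

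Ddit3 encodes CHOP, the stress-induced C/EBP relative that dimerises with the others and alters their binding. The region at its start, at 127290394 to 127291019 on chromosome 10, held 40.5 and 32.0 CPM (line 112), 59.6 and 50.3 (line 113), 29.6 and 24.1 (line 119) and 56.3 and 54.2 (line 73). It also overlaps a gene end of Mbd6, a methyl-CpG-binding domain gene read the other way, so its accessibility cannot be assigned to 1 of the genes. The wider region 525 bp upstream, at 127288223 to 127290268, had 56.0 to 64.9 CPM (line 112), 90.0 to 105.8 (line 113), 39.4 to 41.2 (line 119) and 84.2 to 99.3 (line 73), and contains both listed starts of Mbd6. Line 119 was lowest at both. Line 113 exceeded line 119 by 1.28 ± 0.16 at the upstream region (edgeR adjusted p 4.6e-10) and by 1.03 ± 0.17 at the start (adjusted p 1.1e-06), and by 0.61 and 0.35 on the promoter scale (adjusted p 7.9e-06 and 0.024).

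Between the knockout lines, all 9 promoter regions were lower in line 112 than in line 113, with a median log2 fold change of -0.89. Over all promoters the median was also negative, at -0.49, with 41.9% lower and 4.95% higher in line 112. On the promoter scale 3 of the 9 still passed, both Cebpd regions and that of Cebpz, and 0 were higher, against 10.8% lower and 15.5% higher among all promoters. Between the wild-type lines, 5 were lower in line 119 than in line 73 and 0 higher, against 63.5% and 9.12% of all promoters, and on the promoter scale 2 were lower and 3 higher, against class shares of 17.2% and 20.03%. Those 3 were the Cebpa start region and both Cebpd regions. Line 113 and line 73, of opposite genotype, differed at 0 of the 9 on either scale, with log2 fold changes of -0.12 to 0.39 on the scale of all regions. Of all promoters, 15.4% were higher and 18.5% lower in line 113 than in line 73 (18.6% and 19.6% on the promoter scale).

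Across genotypes the split also moved with the scale. For line 113 over line 119 it went from 5 higher and 0 lower (61.7% and 10.6% of all promoters) to 2 and 2 (16.8% and 21.4%). For line 112 over line 73 it went from 0 and 7 (9.89% and 49.5%) to 0 and 3 (19.9% and 18.4%), and for line 112 over line 119 from 2 and 3 (21.5% and 11.4%) to 1 and 3 (15.9% and 17.5%). In the last of these the Cebpa start region and both Cebpd regions were lower on both scales, while the median of all promoters was 0.16, and the upstream Ddit3 region was higher on both. The median fold between the highest and the lowest line was 2.06 for the 9 promoter regions (range 1.70 to 2.86) and 2.17 for all promoters.

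**Figure D2:**
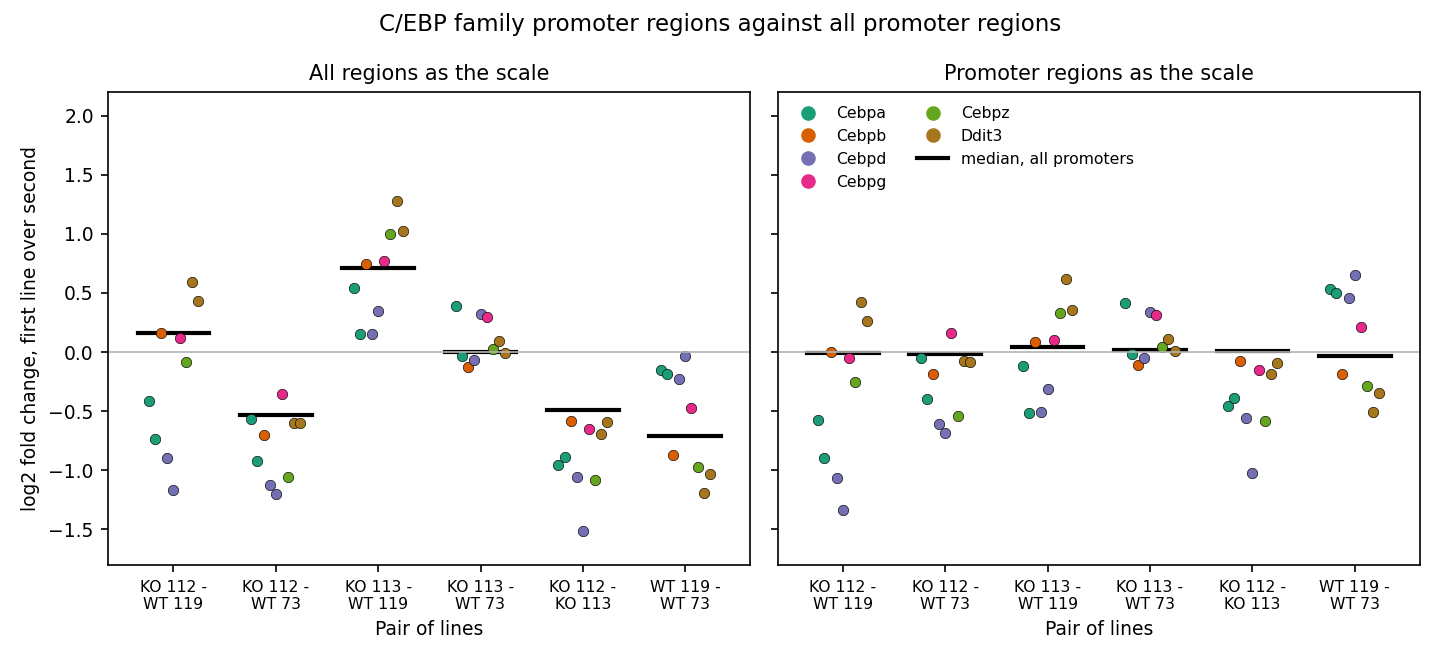
Log2 fold change of the first line over the second (vertical axis) for the 9 C/EBP promoter regions (points, coloured by gene) in the 6 pairs of lines (horizontal axis), with a black bar at the median of all promoter regions. On the left all regions set the scale, and the bars run from -0.71 to 0.71. On the right promoter regions set it, the bars lie near 0, and the Cebpa and Cebpd points for line 112 over line 119 stay the lowest of that pair.

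Over all 26 regions, calls in the 6 pairs of lines were near the share of all 140329 tested regions in some pairs and apart from it in others. Line 112 was higher than line 119 at 6 (22.2% of all regions) and lower at 5 (23.5%), and line 113 was higher than line 119 at 9 (30.2%) and lower at 6 (28.8%). Line 112 was higher than line 73 at 4 (23.8%) and lower at 10 (26.1%), and line 113 was higher than line 73 at 5 (25.8%) and lower at 3 (26.5%). Within a genotype, line 112 was higher than line 113 at 2 (8.24%) and lower at 11 (15.6%), and line 119 was higher than line 73 at 3 (27.5%) and lower at 9 (29.4%). Of the 11 regions lower in line 112 than in line 113, 9 were the promoters. As a share of the 26, 11 regions are 42.3% and 10 regions 38.5%, and the promoters make up 7 of those 10. Promoters were 9 of the 26 but 17381 of the 140329 tested, so the mix of classes enters these comparisons. Of the 17 distal regions, 2 were lower and 2 higher in line 112 than in line 113 (11.85% and 8.71% of all distal regions). Against line 73, 3 were lower and 4 higher in line 112 (22.8% and 25.8%). No region passed in all 6 pairs and 3 passed in none. Leaving out 1 library changed 2 of these totals by over 1.5 times, from 11 to 7 for lines 112 and 119 without the second library of line 119 and from 13 to 8 for lines 112 and 113 without the first library of line 113. Over all regions the same calls went from 64262 to 48905 and from 33422 to 17029.

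**Figure D3:**
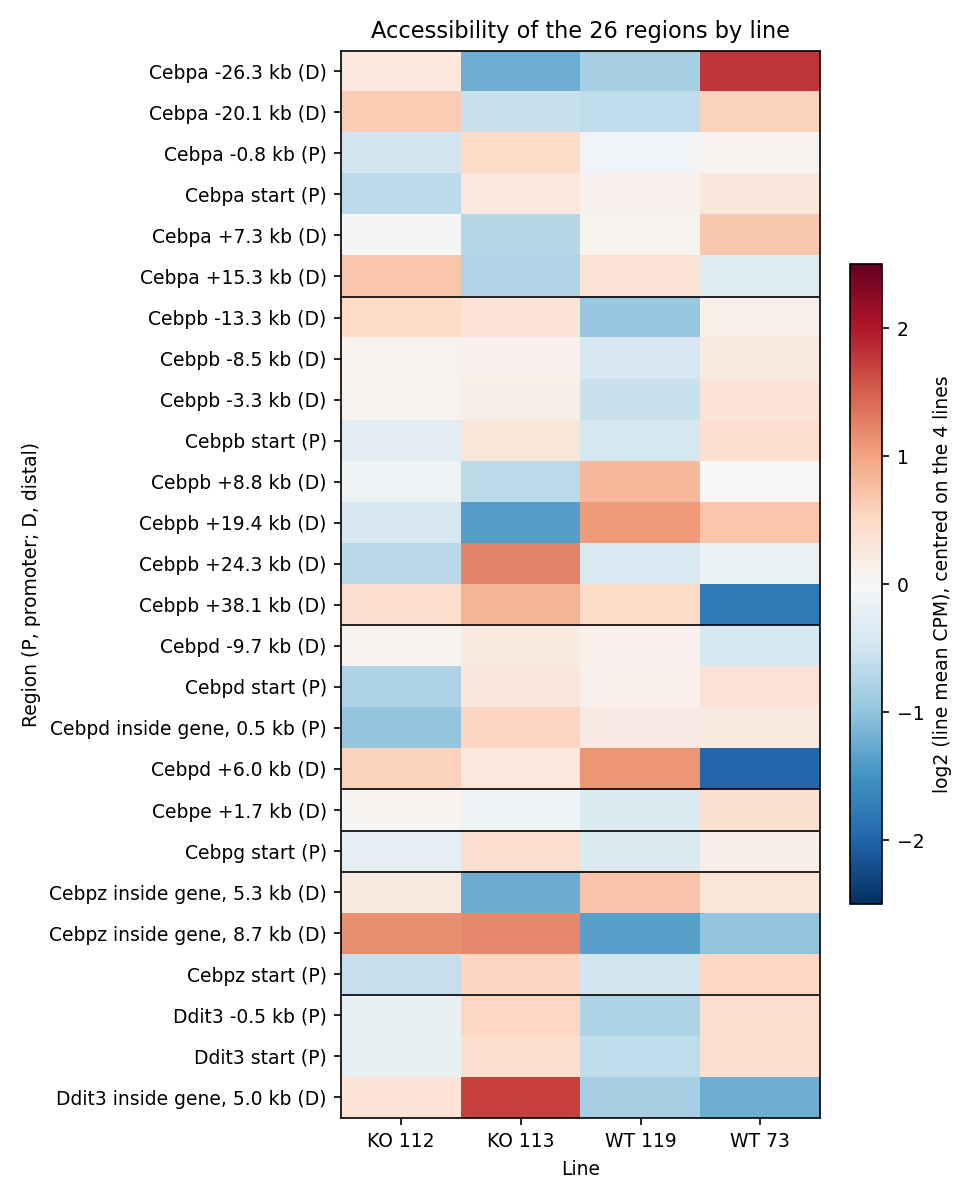
Log2 of the mean CPM of each line (columns), centred on the mean of the 4 lines, for the 26 regions (rows, grouped by gene; P marks promoter and D distal). Red is above and blue below the mean of a row. Distal rows at Cebpa, Cebpb, Cebpd and Ddit3 carry the strongest colours, and few rows divide the 2 knockout lines from the 2 wild-type lines.

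No C/EBP region was called as different between the genotypes when lines were the units. The edgeR quasi-likelihood test on counts summed per line, 2 lines against 2, called 0 of 26 at an adjusted p of 0.05 and 0% of all regions. At an unadjusted p of 0.05, 2 of the 26 passed, against 16.9% of all regions. DESeq2 and limma-voom (line as random block) also called 0 of the 26, against 4.98% and 0.339% of all regions. Without line 119, which leaves 1 wild-type line, 4 passed against 21.1% of all regions, namely the distal regions of Cebpa at 35092150, Cebpb at 167727022, Cebpd at 15895586 and Ddit3 at 127295792, all described below. With libraries as units, which treats the 2 libraries of a line as separate, 3 passed, against 22.7% of all regions. The smallest adjusted p among the members was 0.21 and over all regions 0.14. A permutation over 2 lines against 2 cannot give a two-sided exact p below 0.333. At the 9 promoters the knockout over wild type log2 fold change ran from -0.40 ± 0.59 (SE) at Cebpd to 0.27 ± 0.57 at the upstream Ddit3 region, with a median of -0.0028 against 0.07 for all promoters. The start regions of Cebpa (-0.32 ± 0.63), Cebpb (-0.02 ± 0.60), Cebpg (0.23 ± 0.59), Cebpz (-0.0028 ± 0.67) and Ddit3 (0.16 ± 0.60) had standard errors larger than their differences, so neither a change nor its absence was shown. The distal regions ran from -1.74 to 2.25 with a median of 0.14, against -0.16 for all distal regions.

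In the comparison of libraries, 3 distal regions separated the genotypes, meaning that both knockout lines differed from each wild-type line with one sign and all 4 such tests passed. Higher in the knockout lines were 2 of the 17 distal regions, against 8.34% of all distal regions, and lower was 1, against 7.97%. None of the 9 promoter regions did, against 2.7% of all promoters higher and 3.47% lower. The 4 knockout and 4 wild-type libraries did not overlap at 4 of the 17 distal regions, against 28.7% of distal regions, and at 0 of the 9 promoters, against 12%. Among 17 regions, counts of 2 and 1 are near these background shares. Leaving out the first library of line 112 left 1 separated region, that of Ddit3. Leaving out single libraries also ended the call of the Cebpz region in another 3 cases and of the Cebpb region in 1 other, the first library of line 73, and the Ddit3 region kept it in every such case. A minimum mean of 50 counts left all 3 separated regions untested, so the 0 it gave was fixed in advance for them. Of all regions tested there, 17.7% were separated in either direction.

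The first lay at the far end of Ddit3, 4999 bp from its start, at 127295792 to 127296453 on chromosome 10. It overlaps the end of Mars1, the methionyl-tRNA synthetase gene, whose listed start lies outside it. Its libraries held 9.78 and 8.93 CPM (line 112), 29.0 and 19.6 (line 113), 4.65 and 3.71 (line 119) and 3.33 and 3.06 (line 73). All 4 knockout libraries were above all 4 wild-type libraries, and line 113 was above line 112. Line 113 exceeded line 73 by 2.92 ± 0.32 (SE, edgeR adjusted p 1.7e-11) and line 119 by 2.52 ± 0.27 (adjusted p 1.8e-11), and line 112 exceeded them by 1.55 ± 0.37 and 1.15 ± 0.32 (adjusted p 0.00045 and 0.0023). A peak was called in 3 knockout libraries and no wild-type library, although line 119 had the most peaks in all. With lines as units the log2 fold change was 2.17 ± 0.86 (adjusted p 0.23). Thus the Ddit3 start region and its far end did not share an order of lines, since line 73 was high at the start and lowest at the far end.

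The second lay inside Cebpz, at 78927911 to 78928411 on chromosome 17, and rested on few counts. It had 12 and 6 counts (line 112), 5 and 15 (line 113), 5 and 1 (line 119) and 3 and 1 (line 73), or a mean of 2.32 ± 0.67 CPM (SD, n = 2), 2.38 ± 1.77, 0.41 ± 0.34 and 0.52 ± 0.35. A peak was called in 1 library of line 113. The knockout over wild type log2 fold change was 2.25 ± 0.87 (edgeR adjusted p 0.21), and the pairwise values ran from 2.09 to 2.37.

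The third was lower in the knockout lines and lay 19419 bp downstream of the Cebpb start, at 167708334 to 167708885 on chromosome 2. Its libraries held 3.72 and 6.46 CPM (line 112), 2.27 and 2.90 (line 113), 12.4 and 15.7 (line 119) and 13.1 and 8.61 (line 73). Every wild-type library was above every knockout library, and a peak was called in all 4 wild-type libraries and in no knockout library. Line 112 was lower than line 119 by -1.49 ± 0.31 and than line 73 by -1.14 ± 0.34 (edgeR adjusted p 7.1e-05 and 0.0043), and line 113 by -2.43 ± 0.34 and -2.07 ± 0.37 (adjusted p 2.1e-08 and 3.5e-06). With lines as units the difference was -1.74 ± 0.85 (adjusted p 0.31). On the promoter scale the difference of line 112 from line 73 was -0.62 (adjusted p 0.12), so the region no longer passed in all 4 pairs there, while the Ddit3 and Cebpz regions did.

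**Figure D4:**
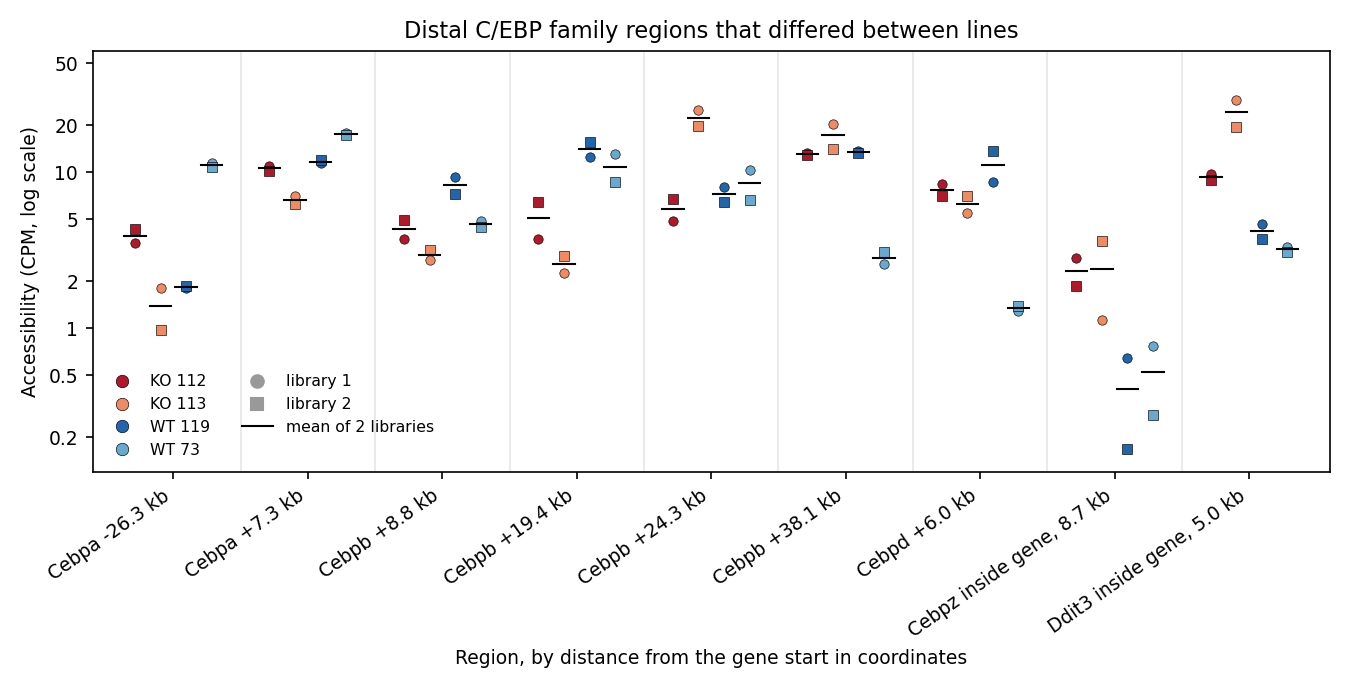
Accessibility in CPM (vertical axis, log scale) of 9 distal C/EBP regions (horizontal axis) in each library, marked as in the plot of promoters. The regions shown were picked for passing in at least 3 pairs of lines. The Cebpb region at +19.4 kb and the Cebpz and Ddit3 regions divide the genotypes, and the Cebpa region 26.3 kb upstream, the Cebpb region at +38.1 kb and the Cebpd region set line 73 apart from the other 3 lines. At the Cebpa region at +7.3 kb the genotypes do not overlap either, but lines 112 and 119 lie close.

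The 2 widest ranges between lines at C/EBP distal regions, at Cebpd and Cebpa, did not follow genotype, whereas the next, the Ddit3 region above, did. A region 6041 bp from the Cebpd gene end, at 15895586 to 15896584 on chromosome 16 and inside Spidr, a DNA repair gene, held 8.38 and 7.08 CPM (line 112), 5.44 and 7.02 (line 113), 8.66 and 13.7 (line 119) and 1.28 and 1.39 (line 73). Line 73 was below the other 6 libraries, with a fold of 8.37 between lines 119 and 73. The log2 fold changes over line 73 were 2.52 ± 0.46 for line 112, 2.197 ± 0.47 for line 113 and 3.02 ± 0.41 for line 119 (edgeR adjusted p 6.9e-06, 7.5e-05 and 9.8e-09). Line 73 had 5 counts in each library there and no peak. The promoter regions of Cebpd were not low in line 73.

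At Cebpb, line 73 was low at a region 38107 bp downstream, at 167727022 to 167727621 on chromosome 2, with 2.56 and 3.06 CPM against 12.9 to 20.4 in the other 6 libraries. Lines 112, 113 and 119 exceeded it by 2.22 ± 0.36, 2.61 ± 0.34 and 2.26 ± 0.34 (edgeR adjusted p 7.0e-07, 2.3e-09 and 1.2e-07), and all 6 of their libraries had a peak there. Cebpa showed the opposite, at 35092150 to 35092967 on chromosome 7, 26326 bp upstream of its start. That region held 11.5 and 10.8 CPM in line 73 against 0.968 to 4.31 in the other 6, and a peak only in line 73. Lines 112, 113 and 119 were lower by -1.53 ± 0.34, -2.97 ± 0.40 and -2.59 ± 0.34 (adjusted p 0.00015, 5.1e-09 and 4.2e-09). These 3 regions kept their calls against line 73 on the promoter scale. Line 73 is also the line with the highest summed fibroblast marker level and the lowest melanocyte marker level given above, and the part of that in these differences was not tested.

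A region 7343 bp downstream of the Cebpa start, at 35126636 to 35128154 on chromosome 7, was the strongest distal region of that gene. It held 10.9 and 10.2 CPM (line 112), 7.02 and 6.29 (line 113), 11.4 and 12.0 (line 119) and 17.9 and 17.2 (line 73). All 4 wild-type libraries had a peak there and no knockout library did, and the genotypes did not overlap, yet line 112 and line 119 differed by only -0.14 ± 0.26 (edgeR adjusted p 0.69). The knockout over wild type log2 fold change was -0.76 ± 0.80 (adjusted p 0.69). This region and the Cebpb regions 8821 and 19419 bp downstream were the 3 distal regions with peaks in the 4 wild-type libraries alone, against 7.52% of all distal regions, and 0 had them in the 4 knockout libraries alone, against 0.526%. The wild-type peak lists were longer (56096 to 94906 peaks) than those of the knockout lines (20387 to 52250).

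Another 2 Cebpb regions, singled out after their values were seen, stood apart in 1 line each. The region 24310 bp downstream held 24.9 and 19.8 CPM in line 113 against 4.89 to 10.2 in the other 6 libraries, with log2 fold changes of 1.62 ± 0.26 over line 119 and 1.40 ± 0.28 over line 73 and of -1.96 ± 0.30 for line 112 over line 113 (edgeR adjusted p 3.3e-07, 1.8e-05 and 1.1e-06). The region 8821 bp downstream held 9.31 and 7.26 CPM in line 119 against 2.72 to 4.93 in the other 6. The 3 upstream Cebpb regions, at 3344, 8490 and 13349 bp, differed less, with folds between lines of 1.55 to 2.74.

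**Figure D5:**
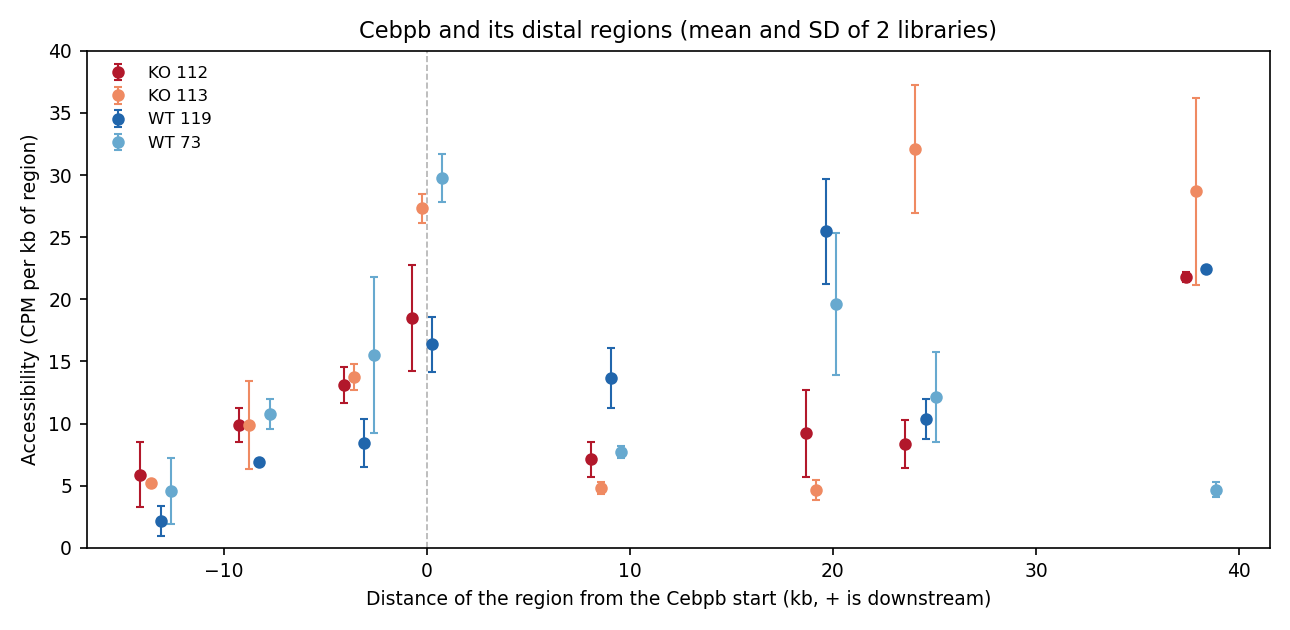
Mean accessibility per kb of region (vertical axis, CPM per kb, bars are the SD of 2 libraries) of the 8 Cebpb regions against their distance from the Cebpb start (horizontal axis, kb, the lines set slightly apart to be seen), coloured by line. Downstream, the region at +19.4 kb is high in both wild-type lines, that at +24.3 kb in line 113, and that at +38.1 kb is low in line 73.

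Cebpe, the granulocyte member, had a single region, 1673 bp from its gene end at 54713847 to 54715004 on chromosome 14. It held 9.08 and 8.93 CPM (line 112), 9.06 and 7.02 (line 113), 6.98 and 6.75 (line 119) and 10.8 and 12.0 (line 73), and a peak in 4 libraries. Only line 119 against line 73 passed, at -0.72 ± 0.28 (edgeR adjusted p 0.024), and on the promoter scale that difference was -0.04 (adjusted p 0.92). It failed whenever 1 library of line 119 or line 73 was left out. The other distal regions (4 more of Cebpa, Cebpd and Cebpz) averaged 1.22 to 2.93 CPM and passed in 0 to 2 pairs. Over the 17 distal regions the median fold between the highest and lowest line was 2.83 (range 1.55 to 8.37), against 4.58 for all distal regions.

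Promoters whose pattern over the 8 libraries was most like that of each member's strongest promoter region were found among 11602 promoter regions of at least 10 CPM, by the correlation of log2 CPM. The libraries of a line share their source, so the values are a description. The closest were Ccdc50 for Cebpa (r 0.990), Adam12 for Cebpb (0.991), Lrrn3 for Cebpd (0.994), the shared promoter of Mrpl50 and Zfp189 for Cebpg (0.9985), Dusp6 for Cebpz (0.996) and Rnps1 for the upstream Ddit3 region (0.9965). Patterns like Cebpa and Cebpd were rare, with 2.27% and 2.56% of candidates above an r of 0.9, against 6.06% for Cebpb, 20.04% for Cebpg, 31.5% for Cebpz and 29.3% for Ddit3. The correlations were on the scale of all regions, on which promoters as a class shifted between lines. The part of that shift in these shares was not tested. The distal Cebpd region low in line 73 was most like the promoters of Entpd2 (0.975), Lmtk3 (0.974) and Foxd3 (0.973), the last a transcription factor of the neural crest, and 0.535% of candidates exceeded 0.9.

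Gene lists around the family were described by counts beside the same counts over all regions, where 7.64% were higher and 7.41% lower in both knockout lines than in both wild-type lines and the median knockout over wild type log2 fold change was -0.09. The genotype test called 0 regions in each list, and an unadjusted p of 0.05 was passed by 2 of the 26 C/EBP regions, 18 of the 108 zipper partner regions, 3 of the 54 stress response regions, 22 of the 142 STAT3 axis regions and 61 of the 155 MITF regions, against 16.9% of all regions. The 26 C/EBP regions had a median of 0.05, with 2 separated upwards and 1 downwards. Zipper partners such as Atf4, Atf3, Jun and Fos had 108 regions with a median of 0.0033, 7 up and 10 down. Genes of the integrated stress response, the pathway of ATF4 and CHOP, had 54 regions with a median of 0.12, 1 up and 2 down. The 2 down were the promoters of Trib3 (16.9 and 21.5 CPM in lines 112 and 113, 43.0 and 41.4 in lines 119 and 73) and Chac1 (5.83 and 11.3 against 20.9 and 30.7), named after their values were seen. Their genotype tests did not pass (edgeR adjusted p 0.36 and 0.29). Promoters of Asns, Ppp1r15a, Sesn2, Ddit4, Vegfa and Herpud1 had log2 fold changes of 0.11 to 0.16. Those of Atf4 and Xbp1 were at -0.10 and -0.35.

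Acute-phase and inflammatory genes known as C/EBP targets had 58 regions near 9 of 12 genes, with a median of -1.19, 3 up and 11 down, and 23 of the 58 passed an unadjusted p of 0.05 (16.9% of all regions did). Among them, again named after their values were seen, the promoter of the chemokine gene Cxcl1 held 2.62 and 1.84 CPM in lines 112 and 113 and 13.6 and 38.5 in lines 119 and 73 (edgeR adjusted p 0.14), and that of Ccl2 held 3.24 and 2.61 against 19.3 and 33.6 (adjusted p 0.14). Ptgs2 was high in line 73 alone, at 52.6 CPM against 1.97 to 3.95. The promoter of Il6 had a peak in all 8 libraries and a log2 fold change of -0.44 ± 0.80. Among the weaker promoters, C3 was also below 0 (-0.52 ± 0.88). Tnf (0.46 ± 0.83), Orm1 (0.26 ± 0.89) and Nos2 (0.10 ± 0.85) were above 0. STAT3 axis genes had 142 regions with a median of -0.44, 7 up and 15 down, and MITF pigmentation genes had 155 regions with a median of 1.26, 55 up and 4 down. The promoter of Mitf itself was at 0.10 ± 0.64.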

How the data were processed

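ATAC-seq was measured in 8 libraries of 4 lines, 2 lines per genotype. Raw counts per shared region, in 1 table, and a peak list per library were deposited by the authors, in which each peak's score, fold over background (a ratio), −log10 p and q and, as another value, summit position are the peak caller's. Bowtie2 2.2.4, Picard 1.118, MACS2 2.1.1.20160309 and the build mm10 (GRCm38) are named per the submitters' processing notes, with no role or order. What was counted (reads, fragments or cuts), the treatment of duplicates and any shift of positions are not given in the sources used here, so counting error may be larger than it appears.

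Genes came from RefSeq GRCm38.p6, with starts from its promoter table, which held 4 of the 7 members. Regions were filtered with filterByExpr (minimum count 10, total 15), which kept 140329 and all 26 members. Counts were tested with edgeR 4.0.16 (robust quasi-likelihood, TMM, two-sided, Benjamini-Hochberg over all regions within each comparison, threshold 0.05, R 4.3.3). The genotype test used counts summed per line. The pair tests used 8 libraries with a mean per line and one shared spread. The standard error was the size of the log2 fold change divided by the square root of F. A peak was counted where it overlapped a region by at least 1 bp. DESeq2 1.42.0 and limma 3.58.1 were alternatives.

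Each member was named with its strongest promoter and distal region, every region separated by genotype, every region with at least an 8-fold range between lines and every region passing in 5 or more pairs. The members and lists were chosen with earlier results of these data known. The gene lists and the likeness rule were described without a test.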

Additional observations from a re-analysis of the deposited data

Results flagged for a closer look

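In 2 of the 52 groups of 4 libraries checked (26 regions, 2 genotypes), 1 library stood apart from the rest of its genotype, and chance flags about 1 in 20 groups. At the Cebpb region starting at 167727022, the first library of line 113 held 20.4 CPM, against 12.9 to 14.03 in the other 3 knockout libraries. At the Cebpe region starting at 54713847, the second library of line 113 held 7.02 CPM, against 8.93 to 9.08 in the other 3.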

How the results depend on the processing

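The genotype calls stayed at 0 except with libraries as units (3), with libraries as units and the replicate block (3) and without line 119 (4). Over all 140329 regions, libraries as units called 31815, and 24224 with the replicate block. The replicate numbers did not pair libraries (6 correlations of their deviations, -0.037 to 0.0039). In the pair tests the replicate block gave 11, 14, 14, 8, 12 and 12 calls against 11, 14, 15, 8, 13 and 12, in the order lines 112 and 119, 112 and 73, 113 and 119, 113 and 73, 112 and 113, and 119 and 73. Over all 140329 regions it gave 63234, 69224, 81813, 72613, 32684 and 78967, against 64262, 70034, 82704, 73275, 33422 and 79859. A minimum mean of 50 counts, which leaves weaker regions untested, gave 5, 5, 6, 2, 4 and 5. Over all 24137 regions kept there, the calls were 11987, 13849, 14310, 14364, 7469 and 15172. It also gave 0 separated regions in place of 3, but those 3 were untested there, so the 0 says nothing of them. DESeq2 gave 6 for lines 112 and 119 and 7 for lines 119 and 73, beside 36287 and 53129 of all 140329 regions. Offsets over 10 Mb windows gave 7 for lines 112 and 119, the promoter scale 9 for lines 112 and 73, and a 20 kb window 5 for lines 113 and 73. Over all 140329 regions the offsets gave 60619 and the promoter scale 71061 in these pairs. The 20 kb window takes in fewer C/EBP regions. Leaving out 1 library gave 7 to 10, 10 to 14, 10 to 17, 7 to 9, 8 to 12 and 8 to 12 calls and 1 to 3 separated regions. Over all regions (135790 to 139607 tested) the calls were 43171 to 62970, 54433 to 68854, 63009 to 86121, 61188 to 76621, 17029 to 33255 and 60957 to 83360. Separated were 15708 to 20490. Taking promoters to 2 kb moved the distal median fold from 2.83 to 3.33. Where no construction is named, the cause was not tested. Depth limits the weak regions most: the Cebpz region inside the gene rested on 1 to 15 counts a library.

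The values below changed sign, none of them past the threshold in the test of lines as units, and the cause was not tested. Without line 73, the knockout over wild type log2 fold change became 0.48 at Cebpa 35092150, 0.47 at Cebpb 167688509, -0.66 at Cebpd 15895586, 0.28 at Cebpe and 0.54 at Cebpz 78936800. Without line 112 it became 0.046 at Cebpa 35118806, 0.25 at Cebpb 167688509, 0.021 at Cebpd 15886539, -0.047 at Cebpd 15895586 and 0.43 at Cebpz 78936800. Without line 113 it was -0.13 at Cebpg, -0.12 at Ddit3 127288223 and -0.17 at Ddit3 127290394, and without line 119 it was -0.18 and -0.24 at these Ddit3 regions. Library totals gave 0.042 at Cebpb 167688509, 0.0037 at Cebpe and 0.033 at Cebpz 78936800. Limma-voom gave 0.10, 0.013 and 0.093 there, and regions with a peak call gave 0.061 at Cebpb and 0.073 at Cebpz. Offsets gave -0.051 at Cebpg and 0.19 at Cebpz 78936800, and the promoter scale -0.14 at Cebpd 15895586. Leaving out 1 library gave -0.12 to 0.068 at Cebpb 167688509, -0.11 to 0.47 at Cebpd 15895586 and -0.14 to 0.079 at Cebpz 78936800.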
